A study of Mus musculus with 22 samples.

Results

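The genes described here encode the proteins of the mitochondrial ribosome. They were chosen by symbol, with earlier results of these data known. Every row of the deposited tables named Mrpl or Mrps with a number and at most 1 further letter was taken. This gave 49 Mrpl and 29 Mrps genes, 78 in all. They stood among 37669, 37851 and 26095 genes listed for Pro-B cells of large size and for Pre-B cells of large and of small size. The mitochondrial ribosome is built from a large and a small subunit, whose proteins are encoded in the nucleus, translated in the cytosol and imported, while its ribosomal RNAs come from the mitochondrial genome. It translates the few mRNAs of that genome, all of which encode core subunits of the respiratory chain and the ATP synthase. Many of its proteins descend from those of the bacterial ribosome and others were added in mitochondria, so the members are described below by subunit and by descent.

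RNA of sorted B cell precursors was sequenced from the bone marrow of adult tet-LIN28B mice and of littermate controls, male and female used alike. The tet-LIN28B mice carried a doxycycline-driven, Flag-tagged human LIN28B cDNA in the Col1a locus (tetO-LIN28B) and the rtTA m2 activator in Rosa26, each on 1 allele. Rosa26 is not restricted to B cells, so neither was the transgene. Control mice were heterozygous for the Rosa26 activator only, and for 10 days both genotypes ate chow with doxycycline at 200 mg/kg. LIN28B binds RNA, is normally made in early-life progenitors, and keeps let-7 microRNAs from maturing. Cells positive for CD3, TER119 or GR1 had been depleted, CD93+ IgM- cells were divided into cKIT+ Pro-B and cKIT- Pre-B cells, and forward scatter divided large from small cells. Large Pro-B cells gave 5 tet-LIN28B and 4 control libraries, large Pre-B cells gave 4 and 3, and small Pre-B cells gave 3 of each, from 15 mice, of which 7 gave both large stages. The comparison of genotypes within each stage asks what LIN28B does to the mRNA of these genes as precursors leave the cell cycle.

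Depth was 13.9 to 23.3 M reads for large Pro-B libraries, between 19.9 and 30.4 M for those of large Pre-B cells and between 32.0 and 51.0 M for those of small Pre-B cells, and all 78 members passed the filter on low values in each stage. Reads assigned to Lin28b, into which those of the transgene can fall, stood at normalized counts of 57.0 to 232 in tet-LIN28B against 4.63 to 10.2 in control large Pro-B cells, at 41.9 to 175 against 9.92 to 28.8 in large Pre-B cells, and at 81.9 to 230.2 against 0 in small Pre-B cells. Other cells moved with some groups: the 8 myeloid markers summed to 4.65 to 8.10 RPM (reads scaled to a common library total) in tet-LIN28B large Pre-B libraries, against 7.74, 384 and 63.0 in control large Pre-B libraries 1, 2 and 3, and to 10.5 to 12.4 in tet-LIN28B small Pre-B libraries, against 10.3, 55.2 and 8.83 in controls 1, 2 and 3. Their part in the results was not tested. In bulk RNA, fewer cells of a type and less RNA per cell cannot be told apart.

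The promoters of 4 members that rose in small Pre-B cells are shown, because each holds GCGC, any base, then TGCGC, the core of the sites bound by NRF1, a transcription factor of nuclear genes for mitochondrial proteins. Each run gives the 250 bases before the start site in RefSeq (GRCm38.p6), 5′ to 3′ on the gene's strand, with the motif, read on either strand, in capitals. They lie at chr11:97315466-97315715 (+) for Mrpl45, chr11:120484387-120484636 (+) for Mrpl12, chr1:37890227-37890476 (+) for Mrpl30 and chr3:95871515-95871764 (-) for Mrps21.
Mrpl45: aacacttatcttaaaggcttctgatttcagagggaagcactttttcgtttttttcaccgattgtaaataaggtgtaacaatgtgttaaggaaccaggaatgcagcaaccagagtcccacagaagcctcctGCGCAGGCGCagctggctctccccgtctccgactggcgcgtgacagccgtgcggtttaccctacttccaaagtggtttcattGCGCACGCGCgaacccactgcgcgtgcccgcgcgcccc
Mrpl12: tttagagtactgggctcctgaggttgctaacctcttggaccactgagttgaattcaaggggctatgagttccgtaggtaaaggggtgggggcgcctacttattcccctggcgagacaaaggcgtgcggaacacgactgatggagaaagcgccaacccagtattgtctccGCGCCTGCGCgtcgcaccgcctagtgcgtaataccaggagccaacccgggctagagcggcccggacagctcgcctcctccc
Mrpl30: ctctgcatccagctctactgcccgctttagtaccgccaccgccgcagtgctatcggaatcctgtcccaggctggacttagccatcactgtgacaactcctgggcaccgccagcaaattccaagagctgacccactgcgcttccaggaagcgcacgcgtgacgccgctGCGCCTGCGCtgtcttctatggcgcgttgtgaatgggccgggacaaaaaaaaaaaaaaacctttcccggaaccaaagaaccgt
Mrps21: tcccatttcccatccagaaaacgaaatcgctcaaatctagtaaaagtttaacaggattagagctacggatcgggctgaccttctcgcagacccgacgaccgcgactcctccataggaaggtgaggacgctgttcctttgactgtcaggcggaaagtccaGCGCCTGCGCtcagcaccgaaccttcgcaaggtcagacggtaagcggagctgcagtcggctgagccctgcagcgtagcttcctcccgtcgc

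Mrpl45 held the motif 3 times in the window that runs from 250 bases before to 50 after the start site, 2 before it and 1 behind it. Over both strands the motif stood in 13 of 75 member promoters (17.3%, from 69 members with an entry) and in 4.60% of all 32851 promoters in the table. Of the 12 members that rose in small Pre-B cells 10 had a promoter, and 5 of these held it, Mrpl39 being the fifth, against 8 of 65 promoters of the other members (12.3%). AAGATGGC, the core bound by YY1, was in 0 of the 10 promoters of members that rose, against 12 of the 65 others (18.5%) and 2.75% of all. At these shares 0 of 10 is no result about the members that rose. CCGGAAG, the core bound by ETS factors, was in 4 of the 10, against 22 of the 65 others (33.8%) and 8.86% of all. The E-box CACGTG, the core bound by MYC with MAX, was in 1 of the 10, against 6 of the 65 others (9.23%) and 7.15% of all. The 6 include overlapping windows of Mrpl2 that hold the same E-box, so that site was counted more than once and the share of the others is too high. Each motif was searched on both strands, and a match is a run of letters in a window, not a site shown to be bound. Of the 5 risen members with the NRF1 motif, Mrpl45 passed in all 6 fits that left out a library. The calls of Mrpl12 and Mrpl30 held in 1 of these fits, and those of Mrps21 and Mrpl39 in 2. Mrps18c and Mrpl34, which passed in all 6, held no NRF1 motif. The split between risen and other members was not tested.

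In small Pre-B cells, the quiescent stage that rearranges the light chain, mRNA of the mitochondrial ribosomal proteins was higher in tet-LIN28B mice. Of the 78 members 12 rose and 0 fell (limma, Benjamini-Hochberg adjusted p under 0.05), where 7.34% of all 14664 genes tested rose and 7.03% fell. The size was small: the median log2 fold change of the members was 0.18, with quartiles of 0.09 and 0.25, and that of all genes was -0.0024. The log2 fold change was positive for 72 members, against 49.7% of all genes. The values of the 3 tet-LIN28B libraries all lay above those of the 3 control libraries for 48 members and below for 2, where all genes gave 17.7% above and 16.2% below. The count of 12 changed with single libraries: it was 4 without tet-LIN28B library 1, 3 without control 1, 7 without control 2 and 5 without control 3. After libraries were rescaled to equal totals, 9 members rose and 1 fell, and of all genes 829 rose and 1227 fell, against 1076 and 1031 as deposited.

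**Figure D1:**
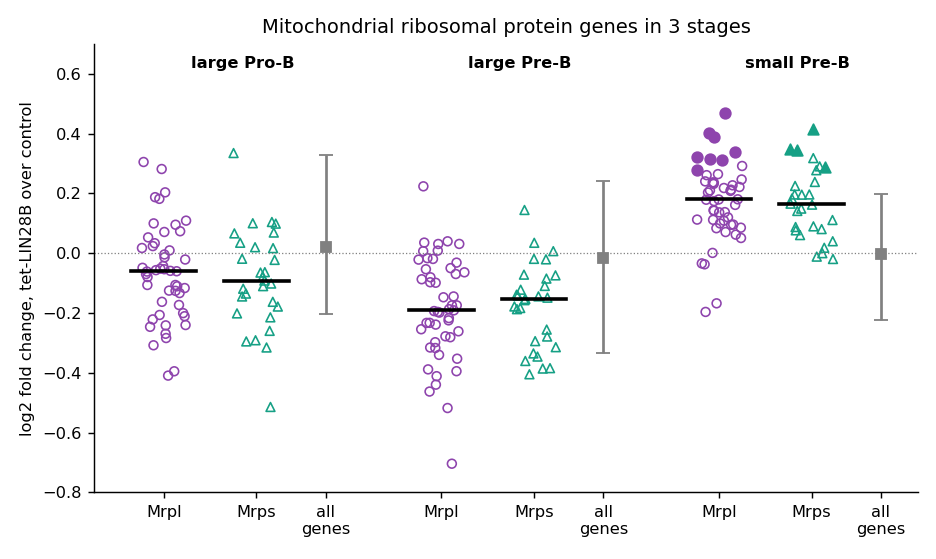
Log2 fold change, tet-LIN28B over control, of each of the 49 Mrpl (circles) and 29 Mrps genes (triangles) in each of the 3 stages. Filled symbols passed the test, black bars are medians, and grey squares with bars give the median and quartiles of all genes tested. The 12 filled symbols all stand in small Pre-B cells, above 0.

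Mrpl45, a mitochondria-specific protein at the exit of the peptide tunnel of the large subunit, changed most. Its normalized counts were 1742, 1635 and 1599 in tet-LIN28B small Pre-B cells, against 1166, 1117 and 1321 in control cells. The lowest tet-LIN28B library stood above the highest control, and the log2 fold change was 0.47 (SE 0.09, adjusted p = 0.0085), a 1.38-fold level. The gene lies on chromosome 11 at 97315716 to 97329920 (GRCm38), on the plus strand.

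Mrps18c, one of 3 mammalian descendants of the bacterial protein S18 and the one that sits at its place in the small subunit, had 2177, 1853 and 2028 normalized counts in tet-LIN28B cells, against 1486, 1507 and 1541 in controls. The 3 controls lay close together and the tet-LIN28B libraries spread wider above them (log2 fold change 0.41, SE 0.08, adjusted p = 0.0101). The other descendants were nearly level between genotypes. Mrps18a, which was placed in the large subunit by structure, had a log2 fold change of 0.09 (adjusted p = 0.598), and Mrps18b, a small-subunit protein, one of 0.02 (adjusted p = 0.924).

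Mrpl34, the counterpart of bacterial L34, had 4437, 3712 and 4136 normalized counts in tet-LIN28B cells, against 2914, 3219 and 3141 in controls. Its log2 fold change was 0.40 (SE 0.08, adjusted p = 0.0104). Mrpl45, Mrps18c and Mrpl34 were the 3 members that passed with each of the 6 libraries left out in turn. Mrpl34 is on chromosome 8 at 71464959 to 71465747 and Mrps18c on chromosome 5 at 100798627 to 100804471.

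Mrpl12, the stalk protein that recruits translation factors to the large subunit, had 2164, 1903 and 1758 normalized counts in tet-LIN28B cells and 1554, 1579 and 1460 in controls. The groups did not overlap (log2 fold change 0.34, SE 0.09, adjusted p = 0.0368), but the call held in only 1 of the 6 fits that left out a library, with adjusted p from 0.0185 to 0.128. Mrpl12 (chromosome 11, 120484613 to 120489065) is also among the transcripts recovered with LIN28B from cultured precursors in the same study, as is Mrps25, a mitochondria-specific protein of the small subunit. No other member is on that list, which the paper limited to transcripts of high level and made without using its control. Whether binding bears on the levels here was not tested. Mrps25 had a log2 fold change of 0.08 (adjusted p = 0.633). The proteins at the base of the same stalk did not pass: Mrpl11 had a log2 fold change of 0.26 (adjusted p = 0.0742) and Mrpl10 one of 0.17 (adjusted p = 0.162).

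The other large-subunit members that rose were Mrpl19, Mrpl39, Mrpl18, Mrpl54 and Mrpl30. Mrpl18, the counterpart of bacterial L18, had 5145, 4572 and 4931 normalized counts in tet-LIN28B cells, against 3682, 3975 and 4102 in controls (log2 fold change 0.32, adjusted p = 0.0179). Mrpl19, the counterpart of bacterial L19, had 1810, 1635 and 1699, against 1214, 1242 and 1485 in controls (log2 fold change 0.39, adjusted p = 0.0259). In both genes the tet-LIN28B libraries lay above every control, and in Mrpl19 control 3 stood closest to them.

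Mrpl39 and Mrpl54 are mitochondria-specific proteins. Mrpl39 had 1981, 1944 and 2080 normalized counts in tet-LIN28B cells, against 1638, 1600 and 1570 in controls (log2 fold change 0.32, adjusted p = 0.0185), and these were among the tightest groups of the 12. Mrpl54 had 2144, 1907 and 2277, against 1642, 1661 and 1784 (log2 fold change 0.31, adjusted p = 0.0403). Mrpl30, the counterpart of bacterial L30, had 1808, 1709 and 1888, against 1446, 1488 and 1520 (log2 fold change 0.28, adjusted p = 0.0408). The calls of Mrpl54 and Mrpl30 each held in 1 of 6 fits with a library left out.

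Among small-subunit members, Mrps21, the counterpart of bacterial S21, had 3534, 2985 and 3363 normalized counts in tet-LIN28B cells, against 2357, 2807 and 2597 in controls (log2 fold change 0.35, adjusted p = 0.0296). Mrps14, the counterpart of bacterial S14, had 3648, 3442 and 3873, against 2825, 3286 and 2883 (log2 fold change 0.29, adjusted p = 0.0419). In both genes control 2 was the highest control and tet-LIN28B library 2 the lowest of its group, and the groups did not overlap. Mrps36 carries the family's symbol but belongs to the 2-oxoglutarate dehydrogenase complex of the citric acid cycle and not to the ribosome. It had 1628, 1591 and 1696 in tet-LIN28B cells, against 1280, 1326 and 1265 in controls (log2 fold change 0.34, adjusted p = 0.0167).

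**Figure D2:**
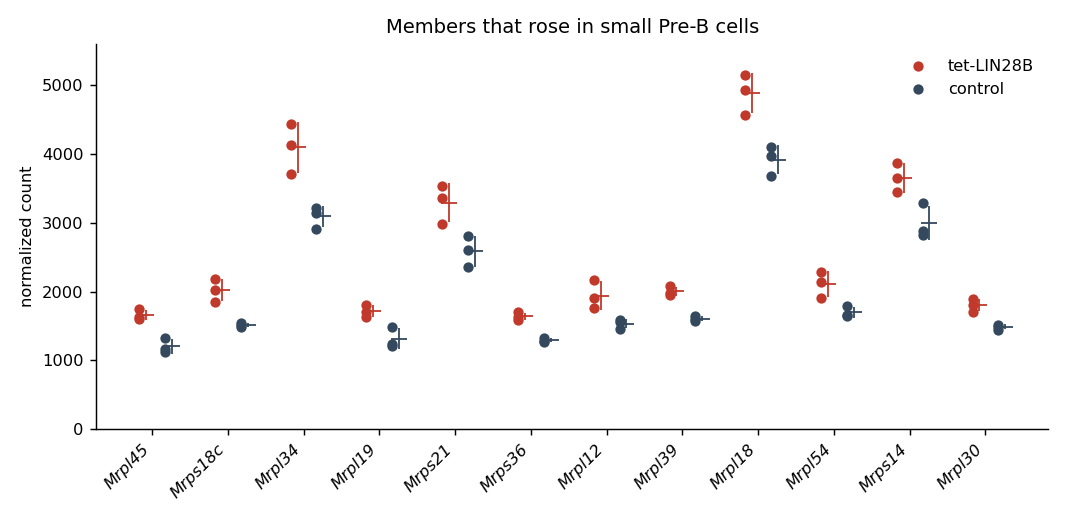
Levels (normalized counts) of the 12 members that rose in small Pre-B cells, in order of log2 fold change, with 1 point per library (3 tet-LIN28B, red, left; 3 control, dark, right) and the mean with its SD beside them. For each gene the lowest tet-LIN28B point lies above the highest control point.

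Both subunits showed the pattern. The median log2 fold change was 0.18 over the 49 Mrpl genes, of which 8 rose, and 0.17 over the 29 Mrps genes, of which 4 rose. With Mrps30 and Mrps18a counted in the large subunit, where structures place them, and Mrps36 left out, the medians were 0.18 for 51 large-subunit and 0.16 for 26 small-subunit genes, with 8 and 3 that rose. By descent, 8 of the 46 members with a bacterial counterpart rose (17.4%, median 0.18) and 3 of the 31 mitochondria-specific ones (9.68%, median 0.17), where 7.34% of all genes rose. The 10 mitochondria-specific proteins of the small subunit had 0 that rose with a median of 0.13, all positive. At the share of all genes 0 of 10 is no result about them. No test of the subunits against each other was made.

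Not every member was higher. Mrpl37 and Mrpl49, both mitochondria-specific proteins of the large subunit, stood lower without overlap. Mrpl37 had 4227, 4426 and 3821 normalized counts in tet-LIN28B cells, against 4724, 4954 and 4594 in controls, and its log2 fold change was -0.20 with an SE of 0.07 (adjusted p = 0.106). Mrpl49 had 4815, 4920 and 4975, against 5556, 5521 and 5445, with a log2 fold change of -0.17 and an SE of 0.06 (adjusted p = 0.0862). Neither passed the test. After rescaling to equal totals Mrpl49 fell (log2 fold change -0.20, adjusted p = 0.0462). Mrpl1, of the L1 stalk, was next with a log2 fold change of -0.04 (adjusted p = 0.861), and Mrpl52, Mrps17 and Mrps2 were the other members below 0.

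Among the 66 members that did not pass, several stood without overlap near the threshold. Mrps30 had 2972, 3264 and 3060 normalized counts in tet-LIN28B cells, against 2721, 2660 and 2567 in controls (log2 fold change 0.23, adjusted p = 0.0593). Mrps22, a mitochondria-specific small-subunit protein, had 631, 528 and 611, against 424, 457 and 515 (log2 fold change 0.34, adjusted p = 0.103), as large a difference as that of Mrpl12 with a wider error. Mrpl58, the peptidyl-tRNA hydrolase that rescues stalled mitochondrial ribosomes, had a log2 fold change of 0.22 (adjusted p = 0.139). Mrps12, of the decoding centre, and Mrps34, a mitochondria-specific protein, were both at 0.20, and Mrps16 was at 0.18. Mrpl3 was at 0.14 and Mrpl44, a protein with a ribonuclease III fold, at 0.10. At an unadjusted p under 0.05, 37 members were higher and 2 lower, against 14.8% and 14.2% of all genes.

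Summed over the members, 4521, 4280 and 4563 RPM lay on them in tet-LIN28B small Pre-B libraries, against 3963, 4176 and 4077 in controls. The groups did not overlap, and the ratio of their means was 1.09. The sum over 10 markers of cycling cells moved with it: it was 383, 270 and 354 RPM in tet-LIN28B libraries, against 216, 245 and 259 in controls, and 5 of the 10 rose. These levels are low beside the 6524 to 8445 RPM of the same markers in tet-LIN28B and 5143 to 8643 in control large Pro-B libraries. Markers of immature and mature B cells also moved, with 4 of 5 risen and sums of 736 to 961 RPM in tet-LIN28B against 485 to 512 in control libraries. The other marker lists lay apart as well, except for the myeloid and megakaryocyte lists. Plasma cell markers summed to 57.5 to 66.2 RPM in tet-LIN28B against 173 to 213 in control libraries (2 of 3 tested fell), and early Pro-B markers to 269 to 344 against 482 to 502 (1 of 4 rose and 1 fell). Nearly all of the early Pro-B sum was Il7r, which fell (mean normalized counts 10353 against 16919). Flt3 rose (63.0 against 27.5), and 2 of the 4 early Pro-B markers had a positive log2 fold change. Plasmacytoid dendritic cell markers summed to 650 to 719 RPM against 531 to 575 (2 of 3 rose and 1 fell). Most of that sum was Irf8 (mean normalized counts 23272 against 18677), while Bst2 rose (870 against 584) and Ccr9 fell (15.9 against 44.6). Erythroid markers summed to 4.10 to 4.93 RPM against 1.43 to 2.90 (2 of 4 rose). Markers of the B lineage summed to 11748 to 12161 RPM against 11033 to 11221, and those of T and NK cells to 0.20 to 0.31 against 0.35 to 1.31. The part of any of these in the members' values was not tested.

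Set beside related genes of the same libraries, the members stood between groups. Of 76 cytosolic ribosomal protein genes 59 rose (median log2 fold change 0.34), and of 73 nuclear genes of oxidative phosphorylation 30 rose (median 0.23), with 0 that fell in either. Of 5 mitochondrial ribosomal proteins with other names 2 rose. Aurkaip1, a small-subunit protein, had 3326, 3164 and 3382 normalized counts in tet-LIN28B cells, against 2703, 2727 and 2645 in controls (log2 fold change 0.29, adjusted p = 0.0177), and Dap3, a GTP-binding small-subunit protein, had 2305, 2180 and 2182, against 1735, 1869 and 1955 (log2 fold change 0.26, adjusted p = 0.0477). Ptcd3, another small-subunit protein, was at -0.06.

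Of 26 genes for assembly of the mitochondrial ribosome and modification of its RNA, 2 rose and 0 fell (median 0.08). The 7.69% that rose is near the share of all genes, of which 7.34% rose and 7.03% fell. The 2 genes were Malsu1, an assembly factor of the large subunit (log2 fold change 0.46, adjusted p = 0.0085), and Rpusd3, a pseudouridine synthase family protein (0.50, adjusted p = 0.0205). Of 12 mitochondrial translation factors 0 passed (median 0.08) and of 20 mitochondrial aminoacyl-tRNA synthetases 0 passed (median 0.04). Of 11 genes for transcription and upkeep of mitochondrial DNA and stability of its mRNAs 0 rose and 1 fell, where 7.03% of all genes fell. The gene that fell was Polg, the catalytic subunit of the mitochondrial DNA polymerase (log2 fold change -0.25, adjusted p = 0.0406). Oxa1l, which inserts newly made mitochondrial proteins into the inner membrane and binds the ribosome beside Mrpl45, rose, with 2116, 2079 and 1958 normalized counts in tet-LIN28B cells against 1578, 1495 and 1674 in controls (log2 fold change 0.37, adjusted p = 0.0127). The 13 mRNAs of the mitochondrial genome, which the ribosome translates, had a median log2 fold change of 0.17 with 0 that passed.

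**Figure D3:**
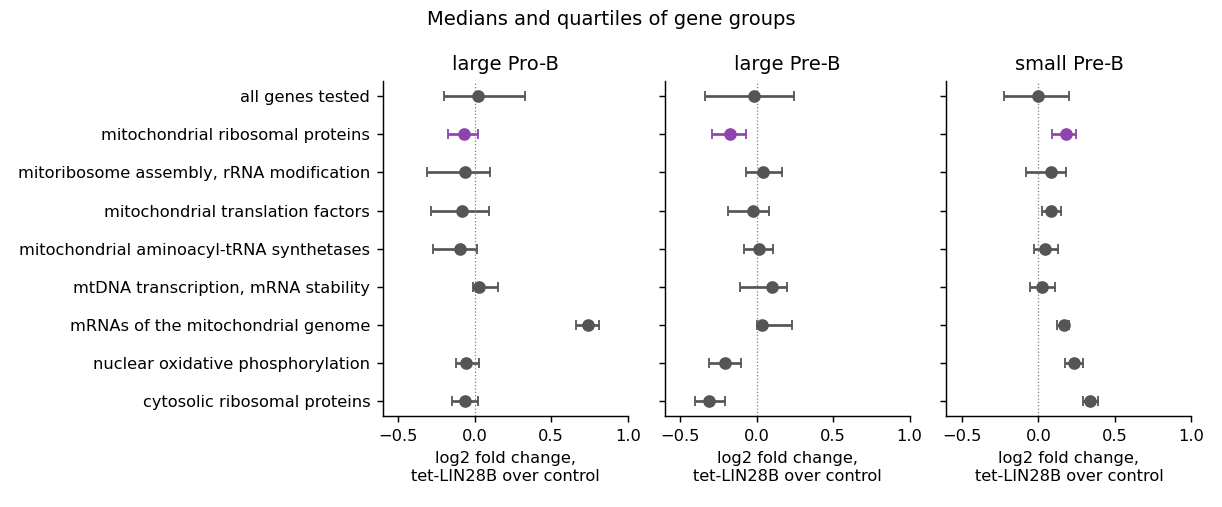
Median log2 fold change, tet-LIN28B over control (points), with quartiles (bars), of all genes tested and of groups of genes in each of the 3 stages. In small Pre-B cells the mitochondrial ribosomal proteins (purple, median 0.18) lie between all genes and the cytosolic ribosomal proteins (0.34), and in large Pre-B cells on the other side of 0 (median -0.18).

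In large Pre-B cells, the dividing stage that follows heavy chain expression, no member passed the test, and most were lower in tet-LIN28B mice. By limma 0 of 78 rose and 0 fell, where 0.0424% of 14155 genes tested rose and 0.0141% fell, and 0 members had an unadjusted p under 0.05, as against 4.03% of all genes higher and 2.54% lower. By edgeR and by DESeq2 on recovered reads 0 members passed as well. The median log2 fold change was -0.18, against -0.02 for all genes, with 10 members positive, where 48.2% of all genes were positive. The median was -0.19 for Mrpl and -0.15 for Mrps genes. The cytosolic ribosomal protein genes had a median of -0.31 and those of oxidative phosphorylation one of -0.21, each with 0 that passed.

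The lowest members in this stage were Mrpl32, Mrpl36 and Mrpl41, all of the large subunit. Mrpl32, which is cut by a mitochondrial protease before it enters the ribosome, had 114, 64.5, 326 and 167 normalized counts in tet-LIN28B cells, against 155, 267 and 299 in controls, and a log2 fold change of -0.70 with an SE of 0.45 (adjusted p = 0.765). Mrpl36, the counterpart of bacterial L36, had 475, 492, 754 and 552, against 564, 792 and 1147 (-0.52, SE 0.27, adjusted p = 0.754). Mrpl41, a mitochondria-specific protein, had 451, 491, 575 and 515, against 580, 743 and 788 (-0.46, SE 0.22, adjusted p = 0.747) and was the 1 member whose groups did not overlap, where 2.87% of all genes lay lower and 3.59% higher without overlap. In all 3 genes tet-LIN28B library 3 was the highest of its group and control 3 the highest of its own.

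The highest were Mrpl9, the counterpart of bacterial L9, at 0.22 (adjusted p = 0.834), Mrps5, of the small subunit, at 0.14 and Mrpl3, beside the peptidyl transferase centre, at 0.04. Of the members that rose in small Pre-B cells, Mrpl34 had 332, 435, 594 and 426 normalized counts in tet-LIN28B large Pre-B cells, against 256, 529 and 578 in controls (log2 fold change 0.03), with overlapping groups. Mrpl12 had 1793, 2161, 2427 and 1952, against 1858, 2497 and 3102 (log2 fold change -0.23, adjusted p = 0.834). Members summed to 3721, 3785, 4600 and 4092 RPM in tet-LIN28B libraries and to 3993, 4735 and 5713 in controls, so that control 1 lay within the tet-LIN28B range and controls 2 and 3 above it. Controls 2 and 3 are the libraries that held the myeloid reads. Markers of T and NK cells were also low in tet-LIN28B libraries (0.49 to 3.27 RPM, against 3.76 to 4.88 in controls), and B lineage markers higher (3920 to 4288 RPM, against 3629 to 3801); their part was not tested. With 1 library left out the median log2 fold change of the members ran from -0.27 without tet-LIN28B library 3 to -0.10 without control 3, and it was -0.26 without control 1 and -0.17 without control 2. After rescaling to equal totals it was -0.28, and that of all genes -0.12.

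**Figure D4:**
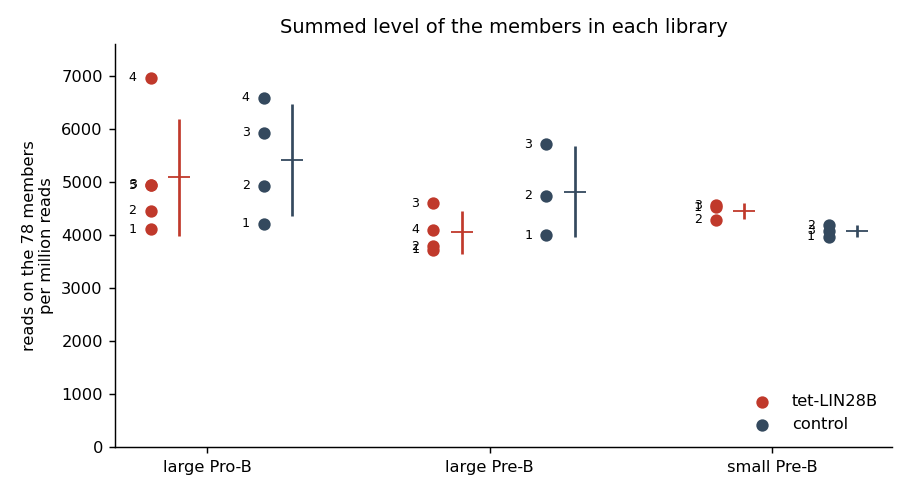
Level of the 78 members, in RPM, for each library, labelled by replicate number (tet-LIN28B red, left; control dark, right), with the mean and SD of each group. Small Pre-B groups do not overlap (4280 to 4563 in tet-LIN28B, 3963 to 4176 in control), while large Pro-B libraries of both genotypes spread from 4109 to 6965 in tet-LIN28B and from 4207 to 6583 in control.

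In large Pro-B cells, which rearrange the heavy chain, no member passed the test and single libraries stood far from the rest. By limma 0 of 78 members passed, as did 0% of 13776 genes tested in either direction. At an unadjusted p under 0.05 there were 394 genes (1.8% higher and 1.06% lower) and 0 members, and on recovered reads edgeR called 0 genes (363 at an unadjusted p under 0.05) and DESeq2 called 4, none of them a member. The median log2 fold change of the members was -0.07, against 0.02 for all genes, and 24 members were positive, where 52.2% of all genes were. All 78 members had groups that overlapped, where 0.697% of all genes lay higher and 0.602% lower without overlap. The median was -0.06 for Mrpl and -0.09 for Mrps genes.

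Tet-LIN28B library 4 had the highest value of the 9 libraries for 49 of the 78 members and control library 4 for 16. Members summed to 4109, 4455, 4949, 6965 and 4938 RPM in tet-LIN28B libraries 1 to 5, against 4207, 4924, 5926 and 6583 in controls 1 to 4. Mrpl45 had 1294, 1402, 1535, 7171 and 1789 normalized counts in tet-LIN28B libraries, against 1397, 1919, 3018 and 3766 in controls. Mrps30 had 1214, 1395, 920, 4186 and 1222, against 1088, 1762, 2611 and 4376. In both genes library 4 of each genotype was the highest of its group. The same 2 libraries had the lowest sums over mRNAs of the mitochondrial genome (872 and 820 RPM, against 1327 to 5637 in the others) and the lowest sums of cycling markers in their genotype (6524 and 5143).

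**Figure D5:**
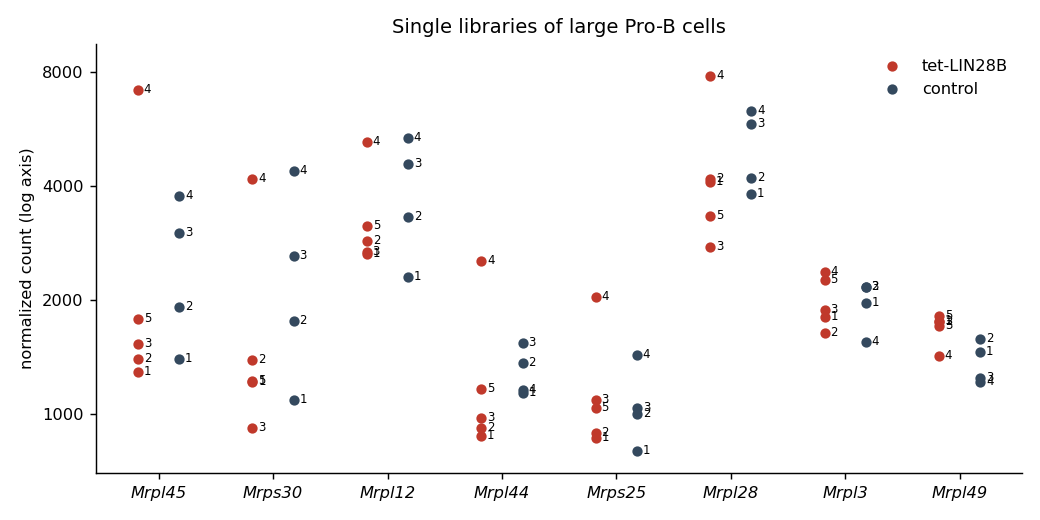
Normalized counts, on a log axis, of 8 members in each library of large Pro-B cells, with the replicate number beside each point (tet-LIN28B red, left; control dark, right). Libraries tet-LIN28B 4 and control 4 stand at the top of their groups for Mrpl45 (7171 and 3766) and Mrps30 (4186 and 4376) and at the bottom of their groups for Mrpl49 (1424 and 1219).

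Not all members followed these libraries. Mrpl49 had 1767, 1749, 1714, 1424 and 1822 normalized counts in tet-LIN28B large Pro-B cells, against 1458, 1576, 1246 and 1219 in controls, and was lowest in library 4 of each genotype. Mrpl3 had 1809, 1641, 1890, 2376 and 2261, against 1968, 2168, 2163 and 1547, a log2 fold change of 0.02. The highest log2 fold changes were those of Mrps22 (0.34, SE 0.35), Mrpl49 (0.31, SE 0.19) and Mrpl23 (0.28, SE 0.50), and the lowest those of Mrps30 (-0.51, SE 0.47), Mrpl52 (-0.41, SE 0.44) and Mrpl36 (-0.39, SE 0.36), all with an adjusted p of 0.999. Without tet-LIN28B library 4 the median of the members was -0.25, without control library 1 it was -0.23, and without control library 4 it was 0.03.

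The 3 stages were also compared with each other in 1 limma model of 11830 genes with the mouse as a random block. The genotype effect was higher in small Pre-B than in large Pre-B cells for 73 of 78 members (median difference 0.40 on the log2 scale) and higher than in large Pro-B cells for 70 (median difference 0.27). For 0 members did the difference pass, with smallest adjusted p of 0.999 and 0.992, where 0.0169% and 0.0254% of all genes passed upwards. In these comparisons 1 member had an unadjusted p under 0.05, Mrpl49, whose effect was lower in small Pre-B than in large Pro-B cells (difference -0.47, SE 0.23). Next came Mrpl2, Mrpl38 and Mrpl4, with differences of 0.49, 0.49 and 0.45. Against large Pre-B cells the differences with the smallest p were those of Mrpl19 (0.48), Mrpl51 (0.45), Mrpl39 (0.46) and Mrps23 (0.48). The calls in small Pre-B cells and their lack in the large stages were not shown to differ between stages. The effect in large Pre-B against large Pro-B cells was higher for 19 members (median difference -0.12), and 0 passed, with Mrpl13 (-0.35), Mrpl9 (0.33), Mrpl27 (-0.40) and Mrpl22 (-0.52) at the smallest p. The comparisons share libraries, and the small Pre-B libraries were deeper and came from other mice.

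Levels per kilobase of transcript order the members by abundance. In control small Pre-B cells Mrps21 was highest with a mean of 5301 normalized counts per kb, followed by Mrpl34 with 5093 and Mrpl33, the counterpart of bacterial L33, with 4003, and the median of the 78 was 1219. In control large Pro-B cells Mrpl28, the counterpart of bacterial L28, led with 4721 per kb, before Mrpl18 with 3060 and Mrpl12 with 2955, and the same 3 led in control large Pre-B cells. Each gene was given a single GENCODE transcript, protein-coding and flagged as principal where possible, and the longest among equals. Lengths ran from 418 bases for Mrpl52 to 7300 for Mrpl17, whose level per kb was the lowest in small Pre-B cells (177). In Mrpl17 6654 of these bases are 3′ untranslated region, so its level per kb and the order of members depend on the transcript chosen. Among all genes, length moved with the genotype difference. In small Pre-B cells the Spearman correlation across genes of length with log2 fold change was -0.17 over the 78 members and -0.21 over 13640 genes. The 25 members under 1000 bases had a median log2 fold change of 0.20 and the 53 longer ones 0.15, against 0.12 for 1647 short and -0.02 for 11993 long genes in all. In large Pro-B cells the correlation was 0.01 over the members and 0.25 over 13167 genes, with medians of -0.07 for the short and -0.06 for the long members, and -0.03 and 0.02 for short and long genes in all. In large Pre-B cells the correlation was 0.25 over the members and 0.20 over 13478 genes, with medians of -0.30 for the short and -0.12 for the long members, and -0.23 and 0.0039 for short and long genes in all. Genes are not independent replicates, and the part of length in the results was not tested.

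Sites for let-7 were looked up because LIN28B blocks this microRNA family, whose members share the seed in capitals.
let-7a-5p: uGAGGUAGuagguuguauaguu
let-7g-5p: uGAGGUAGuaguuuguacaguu
Mrps25 site: tgatgccatgaCTACCTCagaacaccatc
Mrpl15 site: aagcagagtggCTACCTCacatagaagaa

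The matching letters CTACCTC, read on the transcript strand, stood in the 3′ untranslated region of 5 of the 78 members (6.41%), namely Mrpl15, Mrpl17, Mrpl21, Mrpl51 and Mrps25, and in 9.46% of 11117 genes with such a region in small Pre-B cells. The site of Mrps25 lies at chr6:92170518-92170524 (-) and that of Mrpl15 at chr1:4775354-4775360 (-), both in GRCm38. The 5 members with a site had a median log2 fold change of 0.14 in small Pre-B cells with 0 that rose, and the 73 without a site one of 0.18 with 12 that rose. Of all genes with such a region, 101 of 1052 with a site rose (median 0.02) and 868 of 10065 without one (median -0.0040), so that 0 of 5 is no result about the members. A match is a description of the sequence and not a site shown to be used, and microRNAs were not measured.

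The members lie on 17 chromosomes. In GRCm38, Mrpl19 lies on chromosome 6 at 81957851 to 81965958, Mrps21 on chromosome 3 at 95862634 to 95871519, Mrps36 on chromosome 13 at 100735955 to 100744659, Mrpl39 on chromosome 16 at 84717576 to 84735742 and Mrpl18 on chromosome 17 at 12911349 to 12916345. Mrpl54 lies on chromosome 10 at 81264713 to 81266934, Mrps14 on chromosome 1 at 160195215 to 160202170, Mrpl30 on chromosome 1 at 37890477 to 37898535, Mrpl37 on chromosome 4 at 107055874 to 107066868 and Mrpl49 on chromosome 19 at 6053622 to 6057785. Exons of 33 of the 78 overlap those of another gene in GENCODE. In 28 members at least 200 bases match a transcript of another gene at 95% identity or more. Reads of both kinds could be split or shared, also between strands if the libraries kept none. Of the 12 members that rose, Mrpl19 shares 1962 exon bases with Gcfc2 on the opposite strand, which was at 0.14 (adjusted p = 0.571) in small Pre-B cells, and Mrpl18 shares 141 with Tcp1, a chaperonin subunit that itself rose (0.21, adjusted p = 0.0431). Mrps18c shares 250 bases with the predicted gene Gm43511 on the same strand, which was at 0.03, and Mrpl12 shares 200 with Gm16755, which was at 0.40 (adjusted p = 0.495). Mrps36 has 4 near-identical genes and Mrps21 has 1, of which none passed the filter in this stage. Mrpl45, Mrpl34, Mrpl39, Mrpl54, Mrps14 and Mrpl30 overlap no other gene and have no near-identical copy.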

How the data were processed

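The paper names cDNA (SMART-Seq v4) and library (Nextera XT) kits, which keep no strand, for the RNA recovered with LIN28B. For sorted cells it refers to an earlier description. Per the submitters' processing notes the tools were STAR 2.7.1, RSEM 1.28 and DESeq2 with build mm10, and for the gene models behind the counts the source is not stated here. The deposited values are a signal per gene, gene counts that the authors divided by size factors, in 1 table per stage. Each table was normalized separately, so tests stayed within a table except for the model over stages. Deposited tables of the authors' own comparisons (fold changes and p-values) were not used.

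Whole reads could be recovered for 100% of values within 0.1 read. Genes that reached a normalized count of 10 in as many libraries as the smaller group holds were tested on log2(value + 1) with limma 3.58.1 in R 4.3.3, with Benjamini-Hochberg adjustment over all genes tested and a threshold of 0.05. Fold changes on that scale are too small for genes of low level. Since the tables hold normalized counts and not raw ones, edgeR 4.0.16 and DESeq2 1.42.0 were run on recovered reads as alternatives. In small Pre-B cells edgeR called 2018 genes and 12 members. The stage model used 11830 genes and treated each mouse as a block, with a correlation of 0.278. The fits were tested on simulated data with the same variability in every stage and no outlying library. That simulation does not cover the spread of the large stages. Replicates are separate mice per the labels.

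Members, gene lists and tests were chosen with earlier results of these data known. Named are a panel of 17 members, the called members with the largest changes (up to 8 in each direction), the 3 highest and 3 lowest per stage, up to 4 per stage difference and up to 4 called genes per further list. Mrpl54, Mrps14, Mrpl30, Mrpl28, Mrpl33, Mrps17, Mrps2, Ptcd3 and the members with promoter or let-7 matches were named after their values were seen. Sequences are from RefSeq (GRCm38.p6) and gene models from GENCODE. Alternatives were pseudocounts of 0.5 and 5, no filter, a filter at 50, rescaling to equal totals, TMM, quantile normalization, the count tests, a replicate block and each library left out.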

Additional observations from a re-analysis of the deposited data

Results flagged for a closer look

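In large Pro-B cells, tet-LIN28B library 4 stood far from the other 4 tet-LIN28B libraries for 9 of the named members. It was the highest for Mrpl12 (5229 normalized counts, the others 2651 to 3138), Mrps12 (1142), Mrpl44 (2536, the others up to 1163), Mrpl45 (7171, the others up to 1789), Mrps25 (2043), Mrps18a (2201), Mrps30 (4186, the others up to 1395) and Mrpl58 (1988), and the lowest for Mrpl49 (1424, the others from 1714). In large Pre-B cells, tet-LIN28B library 3 was far above the others for Mrps36 (269 normalized counts, the others 70.3 to 100.2). Of 67 groups of 4 or 5 libraries looked at, 10 held such a library, and 9 of the 10 come from the same library. The groups are genes of the same libraries and not independent, so no chance rate was set against this count. The cause was not tested.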

How the results depend on the processing

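In small Pre-B cells the median log2 fold change of the members stayed positive under every alternative (0.14 to 0.21). The members that rose numbered 9 to 16 under the other settings and 3 to 12 with a library left out, and Mrpl45, Mrps18c and Mrpl34 passed in all of them. Rescaling to equal totals gave 1 member that fell. All genes called numbered 1016 to 1965 with a library left out, against 1076 that rose and 1031 that fell in all libraries. In large Pre-B cells all genes called numbered 15 with no filter, 1 after rescaling, 4 after quantile normalization, 0 with edgeR, 75 with DESeq2, 5 with the replicate block and 0 to 23 with a library left out, against 8, and the large minus small subunit median ran from -0.045 to 0.041. In large Pro-B cells DESeq2 called 4 genes, and 0 to 1 were called with a library left out. The cause of these shifts was not tested.

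Same-numbered libraries did not all deviate together (correlations of -0.19 to 0.43 in large Pro-B, -0.059 to 0.16 in large Pre-B and -0.11 to 0.017 in small Pre-B cells). The labels name no litter, so these correlations cannot settle whether the numbers pair the libraries. With the replicate block 9 members rose in small Pre-B cells, all among the 12.

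Signs turned for members that had not passed. In large Pro-B cells the log2 fold change turned for Mrpl3 (-0.029 with TMM, -0.0079 with edgeR, -0.025 with the block), Mrpl45 (0.036 with edgeR, 0.066 with DESeq2) and Mrps18b (-0.036 with TMM, -0.011 with quantiles, -0.049 with the block). Values with a library left out of large Pro-B cells ran from -0.24 to 0.015 for Mrpl11, -0.086 to 0.091 for Mrpl3, -0.65 to 0.027 for Mrpl45, -0.30 to 0.027 for Mrps16, -0.11 to 0.25 for Mrps25, -0.11 to 0.12 for Mrps18b, -0.23 to 0.40 for Mrps18c, -0.30 to 0.39 for Mrps36 and -0.36 to 0.043 for Mrpl58. In large Pre-B cells the log2 fold change turned for Mrpl10 (-0.076 rescaled, -0.098 with quantiles), Mrpl3 (-0.067 rescaled, -0.090 with quantiles), Mrps22 (0.017 with TMM, 0.020 with edgeR, 0.044 with DESeq2) and Mrps18b (0.016 with TMM). Values with a library left out of large Pre-B cells ran from -0.090 to 0.13 for Mrpl10, -0.034 to 0.087 for Mrpl3, -0.26 to 0.22 for Mrps22, -0.31 to 0.034 for Mrps25, -0.18 to 0.13 for Mrps18b, -0.50 to 0.15 for Mrps18c and -0.26 to 0.018 for Mrps30. In small Pre-B cells the log2 fold change turned for Mrps18b (-0.018 rescaled). Values with a library left out of small Pre-B cells ran from -0.017 to 0.15 for Mrps18a, -0.052 to 0.083 for Mrps18b and -0.14 to 0.044 for Mrpl1. The large stages had shallower and more variable libraries, and the standard error of Mrpl45 in large Pro-B cells was 0.48, against 0.09 in small Pre-B cells.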
